A study of Canis lupus familiaris with 12 samples.

Results

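The miR-181 family was compared between CHMm and CHMmTAM, the tamoxifen (TAM) resistant line derived from it. Its members were taken by name from the miRNA count table, as cfa-miR-181a, cfa-miR-181b, cfa-miR-181c and cfa-miR-181d (cfa for Canis familiaris, left out below). All 4 were present among the 453 miRNAs listed and all 4 were among the 284 with enough counts to be tested, and nothing else listed bore the name miR-181. CHMm was established from a metastatic lesion, a pleural effusion, of a dog with a mammary gland tumor. CHMmTAM was selected by raising the TAM concentration over 10 months to 10 μM, was kept at 10 μM for 1 month, and then spent 1 week without the drug. The paper describes culture in phenol-red-free medium with charcoal-stripped, steroid-depleted serum and 4-hydroxytamoxifen. It does not give the medium of the parental line separately. The comparison rests on 3 small RNA libraries per line. Neither the labels nor the methods state that these came from separate cultures, so p-values measure the spread between these libraries only. All 3 resistant libraries come from 1 resistant line, so that resistance and drift over the months of culture cannot be told apart.

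miR-181 miRNAs are conserved in vertebrates and share the same seed, the short stretch at the 5′ end with which a miRNA pairs to its targets, so that the members are thought to repress overlapping sets of mRNAs. The family is best known for tuning the response of T lymphocytes to antigen, and it has also been studied in breast tumors in connection with TGF-β signaling and stem-like cells. By the RefSeq annotation of UU_Cfam_GSD_1.0, a dog assembly, the family has 6 loci in 3 adjacent pairs. MIR181A-1 lies next to MIR181B-1. MIR181A-2 lies next to MIR181B-2 within the spans of both NR6A1, a protein-coding gene, and the lncRNA LOC102152471. Strands were not compared, so neither is shown to be the host gene. MIR181C lies next to MIR181D. miR-181a and miR-181b therefore have 2 loci each, whose reads cannot be separated here, whereas miR-181c and miR-181d have 1 locus each. By sequence the kinship runs the other way, because mature miR-181a most resembles miR-181c and mature miR-181b most resembles miR-181d.

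The mature sequences were not used here. The oligonucleotide for miR-181a from the study's qRT-PCR assays, 22 bases long, is shown, since none is listed there for the other members. It was not aligned to the other members.
miR-181a oligonucleotide: cggaacattcaacgctgtcggt

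The libraries held between 7512659 and 11450062 counts in CHMm and between 8137736 and 12482211 counts in CHMmTAM. miR-181d was by far the most abundant member and ranked 25 among the 284 tested miRNAs in CHMm. miR-181b ranked 65, miR-181a ranked 83 and miR-181c ranked 84. At these depths every member had at least 1884 counts in every library. The values below are CPM, counts relative to the library total after scaling by the TMM method of edgeR, and levels of different members are compared as read counts, in which ligation and amplification may favor some miRNAs over others.

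The first member, cfa-miR-181a, had 259, 251 and 244 CPM in the 3 CHMm libraries and 577, 600 and 626 CPM in the 3 CHMmTAM libraries. Every resistant library lay far above every parental library. The means were 251 ± 7.47 CPM (SD, n = 3) and 601 ± 24.7 CPM (SD, n = 3), a 2.39-fold difference. The rise of miR-181a was 1.26 on the log2 scale (standard error 0.07, 95% interval 1.11 to 1.40, FDR = 1.14e-57, quasi-likelihood test of edgeR, adjusted by Benjamini-Hochberg over the 284 miRNAs). The change also exceeded the study's fold-change threshold, a log2 fold change of 1, which together with an FDR below 0.05 was passed by 5.99% of the tested miRNAs in this direction and by 5.28% in the other. Its rank by abundance moved from 83 to 62. The study's own list of differentially expressed miRNAs also holds miR-181a as upregulated, so the call is not new.

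cfa-miR-181b, which lies beside miR-181a at both of its loci, had 493, 500.5 and 460 CPM in CHMm and 808, 868 and 923 CPM in CHMmTAM. The lines again did not overlap. The means were 484 ± 21.8 CPM and 866 ± 57.6 CPM (SD, n = 3 each), a 1.79-fold difference. The log2 fold change was 0.84 (standard error 0.07, 95% interval 0.70 to 0.98, FDR = 7.14e-30 in the edgeR test), below the study's fold-change threshold. Its rank moved from 65 to 50.

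cfa-miR-181c had 258, 234 and 237 CPM in CHMm and 235, 251 and 276 CPM in CHMmTAM. The libraries of the lines were intermixed. The means were 243 ± 12.9 CPM and 254 ± 20.7 CPM (SD, n = 3 each), and the log2 fold change was 0.06 (standard error 0.07, 95% interval -0.09 to 0.21, FDR = 0.541 in the edgeR test).

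cfa-miR-181d, its neighbor, had 4624, 4572 and 4306 CPM in CHMm and 4359, 4769 and 5050 CPM in CHMmTAM. These libraries were intermixed as well, with the lowest resistant library below the 2 highest parental libraries. The means were 4501 ± 171 CPM and 4726 ± 348 CPM (SD, n = 3 each), and the log2 fold change was 0.07 (standard error 0.06, 95% interval -0.06 to 0.20, FDR = 0.394 in the edgeR test). No change of miR-181c or miR-181d was detected at an FDR below 0.05, and the intervals leave room for differences of up to 0.21 and 0.20 on the log2 scale.

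**Figure D1:**
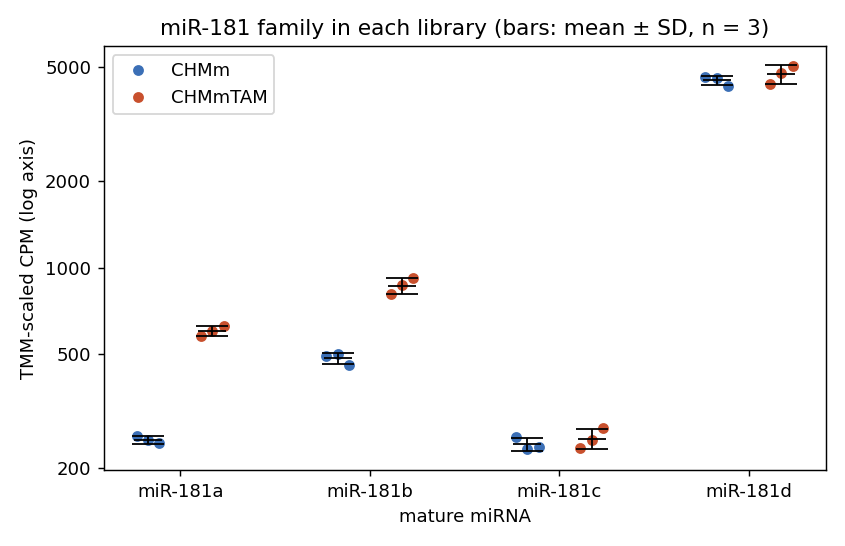
TMM-scaled CPM (log axis) of the 4 members in each of the 3 CHMm and 3 CHMmTAM libraries, with the mean ± SD. The points of the lines are apart for miR-181a (244 to 259 against 577 to 626 CPM) and miR-181b (460 to 500.5 against 808 to 923 CPM) and intermixed for miR-181c and miR-181d.

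Of the 4 members, 2 were therefore called higher in CHMmTAM at an FDR below 0.05 and 0 lower, where 44% of all tested miRNAs were called, 25.4% as higher and 18.7% as lower. This split, 72 higher and 53 lower, became 64 and 73 under RLE size factors, 62 and 67 with TMM factors computed without the 10 most abundant miRNAs, and 41 and 100 under upper-quartile normalization. Non-overlap of the 3 resistant libraries above the 3 parental libraries, seen for miR-181a and miR-181b, was found for 28.9% of all tested miRNAs. Changes of this kind were thus common in the profile, and the count alone does not set the family apart. The median log2 fold change was 0.45 over the 4 members and 0.06 over all tested miRNAs.

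The direction of the small values depended on how the libraries were scaled. Over 5 scalings the log2 fold change of miR-181a ranged from 1.02 to 1.26 and that of miR-181b from 0.60 to 0.84. miR-181c ranged from -0.18 to 0.06 and miR-181d from -0.17 to 0.07, and under upper-quartile normalization these 2 members were called lower in CHMmTAM (FDR = 0.0450 and 0.0378 in the edgeR test). That scaling moved the median of all tested miRNAs from 0.06 to -0.18. Set against the median of all tested miRNAs, miR-181a was higher by 1.20 and miR-181b by 0.78 under each scaling, whereas miR-181c and miR-181d lay within 0.011 of the median. A scaling shifts the log2 fold changes of all miRNAs by nearly the same amount. These distances were thus bound to stay nearly constant, and their agreement over the 5 scalings is not separate evidence.

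**Figure D2:**
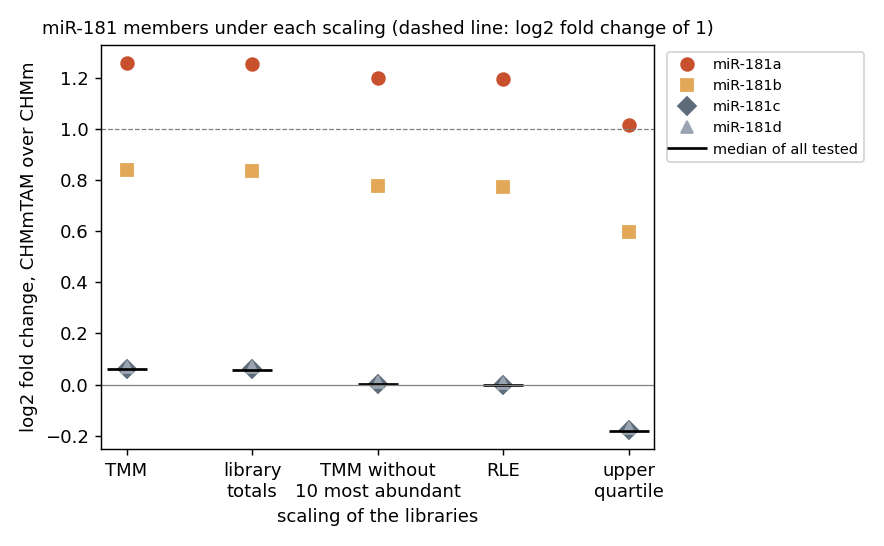
Log2 fold change of CHMmTAM over CHMm for the 4 members under 5 scalings of the libraries, with the median of all tested miRNAs as a black bar. miR-181c and miR-181d, whose symbols overlap, lie on the median under every scaling (from 0.06 with TMM to -0.18 with upper-quartile normalization), and miR-181a and miR-181b lie above it. Scaling moves all miRNAs nearly alike, so the distances from the median stay nearly the same by construction.

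Ratios between members within a library do not depend on the scaling, and they set the a/b members directly against the c/d cluster. The log2 ratio of miR-181a plus miR-181b to miR-181c plus miR-181d was -2.70, -2.68 and -2.69 in the CHMm libraries and -1.73, -1.77 and -1.78 in the CHMmTAM libraries. The 3 values of a line were nearly the same and the lines were far apart. The ratio was higher by 0.93 in CHMmTAM, and the difference between any resistant and any parental library was between 0.90 and 0.97. The exact two-sided permutation test gave p = 0.1, which is the smallest p that 3 libraries against 3 allow.

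Each a/b member was also set against each c/d member. Of the 6 pairs of members, the log2 ratio of miR-181a to miR-181c differed the most, with 0.05 ± 0.05 in CHMm and 1.25 ± 0.06 in CHMmTAM (SD, n = 3 each), a difference of 1.20. miR-181a to miR-181d differed by 1.19, miR-181b to miR-181c by 0.78 and miR-181b to miR-181d by 0.77 in the same direction. In these 4 pairs the resistant libraries did not overlap the parental libraries, with an exact permutation p = 0.1 (adjusted p = 0.12 over the 6 pairs). None of these can pass 0.05 with 3 libraries a line.

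Members of the same adjacent pair were compared next. The log2 ratio of miR-181c to miR-181d was -4.17, -4.29 and -4.18 in CHMm and -4.21, -4.25 and -4.19 in CHMmTAM, a difference of -0.0076 with intermixed libraries (exact permutation p = 0.9, adjusted p = 0.9 over the 6 pairs). Differences between single libraries of the lines ran from -0.08 to 0.09. The log2 ratio of miR-181a to miR-181b, by contrast, was -0.93, -0.996 and -0.91 in CHMm and -0.49, -0.53 and -0.56 in CHMmTAM. The lines did not overlap, and the ratio was higher by 0.42 in CHMmTAM (exact permutation p = 0.1, adjusted p = 0.12 over the 6 pairs). miR-181a had 52.0% ± 1.61 (SD, n = 3) of the counts of miR-181b in CHMm and 69.5% ± 1.80 in CHMmTAM.

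**Figure D3:**
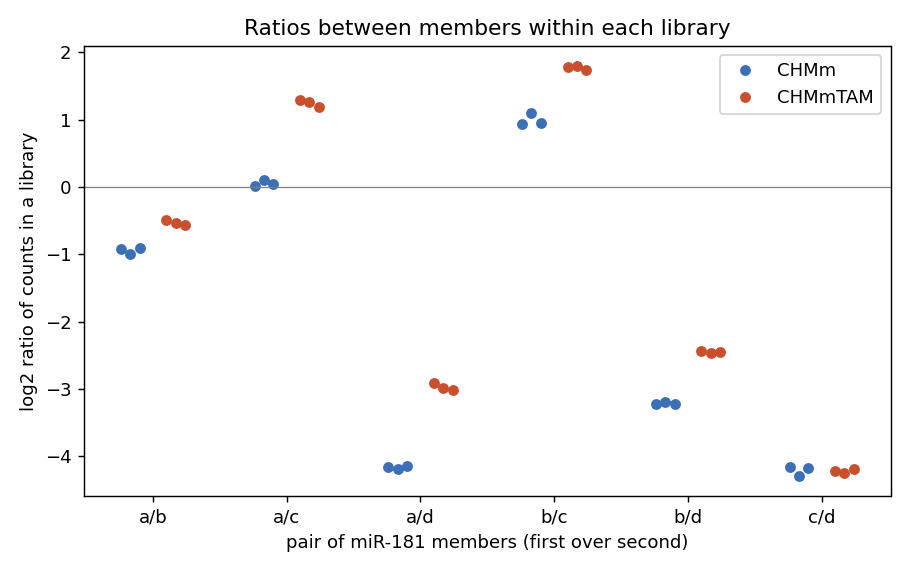
Log2 ratio of the counts of each pair of members within a library, for the 3 CHMm and the 3 CHMmTAM libraries. The ratios a/c, a/d, b/c and b/d were higher by 0.77 to 1.20 in CHMmTAM and a/b by 0.42, whereas the points of c/d are intermixed.

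miR-181a and miR-181c were nearly equal in the parental line and not in the resistant line. miR-181a made up 50.2%, 51.8% and 50.7% of the counts of these 2 members in the CHMm libraries, and the 95% intervals by Wilson's method, which cover counting error only, were 48.6% to 51.8% in the first, 50.5% to 53.1% in the second and 49.2% to 52.2% in the third. In the CHMmTAM libraries it made up 71.1%, 70.6% and 69.4%. The order of the levels was thus miR-181d, miR-181b and then miR-181a with miR-181c in CHMm, where the last 2 did not differ beyond their spread. In CHMmTAM the order was miR-181d, miR-181b, miR-181a and miR-181c, and the levels did not overlap.

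miR-181b and miR-181d differ little in sequence, and miR-181d was much the more abundant. miR-181b had 10.7%, 10.9% and 10.7% of the counts of miR-181d in the CHMm libraries. In the CHMmTAM libraries it had 18.5%, 18.2% and 18.3%. The 3 values of a line lay close together and those of the lines were apart. The sources used here do not say how a read matching more than 1 member was counted, and the part of such reads in these levels was not tested.

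Since miR-181d made up most of the family, the family total differed less between the lines than miR-181a and miR-181b did. As a share of the library, the 4 members together were at 0.548% ± 0.016 in CHMm (SD, n = 3) and 0.644% ± 0.030 in CHMmTAM. miR-181a plus miR-181b were at 0.0736% ± 0.0024 and 0.147% ± 0.0049, and miR-181c plus miR-181d were at 0.475% ± 0.013 and 0.497% ± 0.026. In TMM-scaled CPM, the a/b sum was 1.99-fold higher, the c/d sum 1.05-fold and the family total 1.18-fold. Of the counts of the family, miR-181d took 82.1% ± 0.12 in CHMm and 73.3% ± 0.33 in CHMmTAM. miR-181a took 4.59% ± 0.07 and 9.34% ± 0.28, miR-181b took 8.84% ± 0.14 and 13.4% ± 0.07, and miR-181c took 4.43% ± 0.20 and 3.93% ± 0.07.

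**Figure D4:**
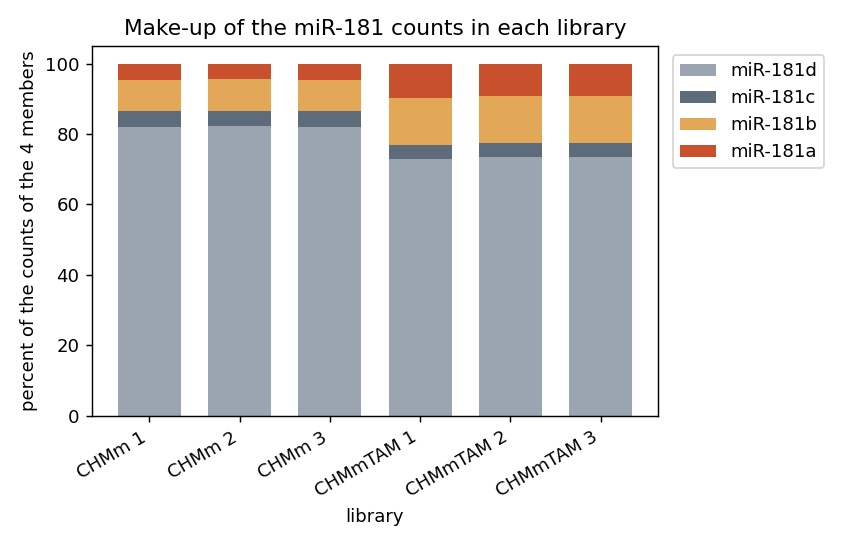
Percent of the summed counts of the 4 members that each took, for the 3 CHMm and 3 CHMmTAM libraries. miR-181d took between 82.1% and 82.3% in CHMm and between 72.9% and 73.5% in CHMmTAM, and the bars of miR-181a and miR-181b are taller in every resistant library.

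Each member was also tested against its own family in a model across all miRNAs, in which families were formed by the number in the name (edgeR's diffSpliceDGE, 97 members of families with at least 2 tested). The family value is weighted by counts and includes the member itself. miR-181a rose more than its family by 1.02 on the log2 scale (FDR = 3.41e-15) and miR-181b by 0.60 (FDR = 3.29e-09), by edgeR's test with Benjamini-Hochberg adjustment. miR-181c was at -0.17 (FDR = 0.104) and miR-181d at -0.16 (FDR = 0.0881) by the same test. Of the 97 members, 18.6% were called in this way.

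The spread within the family was set beside that of other families. The log2 fold changes of the 4 miR-181 members spanned 1.20, the sixth-widest of the 40 name families of this model. Among the wider ones were miR-34, which spanned 1.79 with 3 of 3 members higher, miR-146, which spanned 1.37 over 2 members, and let-7, which spanned 1.27 with 1 of 8 higher and 4 lower. Also wider were miR-8799 at 1.37 and miR-8873 at 1.24, but their tested members had at most 10 and 6 counts in any library. In a shorter list of 12 name families, miR-181 included, the narrowest was miR-26 at 0.0095. Whether members of the other families are transcribed together was not examined.

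The next miRNA gene after MIR181C in RefSeq is MIR23A, followed by MIR27A and MIR24-2, a group whose members are often transcribed together. The mean of miR-23a was 576 CPM (SD 29.96, n = 3) in the parental and 543 CPM (SD 35.4, n = 3) in the resistant line, a log2 fold change of -0.08 (95% interval -0.22 to 0.06, FDR = 0.355 in the edgeR test). miR-24, which has 2 loci, was at 0.09 (95% interval -0.03 to 0.22, FDR = 0.219). miR-27a was called lower, at -0.27 (95% interval -0.39 to -0.15, FDR = 5.95e-05 in the edgeR test), although its libraries overlapped between the lines. These 3 neighbors were not called higher.

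The miRNA genes nearest to the a/b loci on the same chromosomes are MIR29C-1, after MIR181B-1, and MIR199-3, before MIR181B-2, and how far away they lie was not examined. Both miRNAs were lower in CHMmTAM without overlap of the libraries, whereas miR-181a and miR-181b were higher. miR-29c was at 30.7 ± 1.71 CPM in CHMm and 22.6 ± 1.08 CPM in CHMmTAM (SD, n = 3 each), a log2 fold change of -0.44 (FDR = 0.00033 in the edgeR test). miR-199 was at 37.8 ± 2.58 and 21.2 ± 2.53 CPM, a log2 fold change of -0.85 (FDR = 2.54e-13 in the edgeR test). Both have further loci elsewhere, whose reads cannot be separated here.

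**Figure D5:**
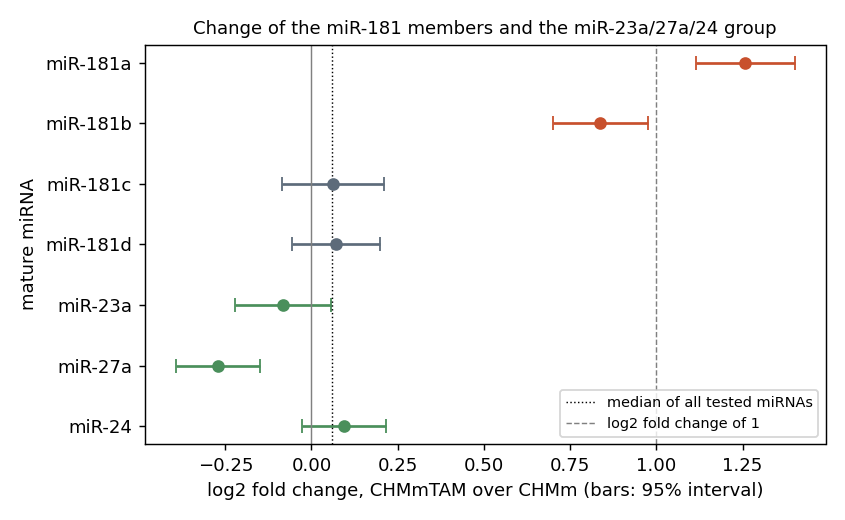
Log2 fold change of CHMmTAM over CHMm with its 95% interval for the 4 members and for miR-23a, miR-27a and miR-24. miR-181a (1.26) and miR-181b (0.84) stand apart, and the intervals of miR-181c, miR-181d, miR-23a and miR-24 include 0.

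Among the 117 miRNAs with a mean of at least 50 CPM, those with profiles nearest to miR-181a over the 6 libraries were miR-187, miR-10b, miR-140, miR-181b and miR-183. The root mean square difference of their log2 CPM from that of miR-181a, after centering on the CHMm mean, was 0.10, 0.14, 0.20, 0.30 and 0.35. miR-187 went from 46.6 ± 4.07 to 110 ± 6.57 CPM (SD, n = 3 each) and miR-10b from 203 ± 7.56 to 549 ± 38.7 CPM. miR-181d and miR-181c were far down the same order, at places 48 and 49. For miR-181c the nearest of the 117 profiles was that of miR-181d, at 0.043, and for miR-181d it was that of miR-181c. Other miRNAs with little change were almost as near. miR-21 was at 0.049 from miR-181c, and miR-95 at 0.045 from miR-181d. The nearness of miR-181c and miR-181d thus does not set them apart from such miRNAs.

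miR-181a is abundant in lymphoid cells, so markers of blood cells were examined beside it. Of 7 miRNAs listed for haematopoietic cells, 5 were tested. Beside 25.4% higher and 18.7% lower among all tested miRNAs, 1 of the 5 was called higher and 1 lower in CHMmTAM. The higher one, named after its value was seen, was miR-142, at 2.92 ± 0.49 CPM in CHMm and 5.07 ± 0.49 CPM in CHMmTAM. miR-451 was at 0.81 ± 0.48 and 1.37 ± 0.10 CPM (log2 fold change 0.85, FDR = 0.13 in the edgeR test) and miR-223 at 0.56 ± 0.14 and 1.08 ± 0.54 CPM (log2 fold change 0.82, FDR = 0.219 in the edgeR test). The median log2 fold change of the 5 was 0.77, against 0.06 over all tested miRNAs. miR-486, often linked to blood cells, is outside the list and was named after its value was seen. It was at 1.09 ± 0.30 and 5.54 ± 0.86 CPM (log2 fold change 2.40, FDR = 2.74e-14 in the edgeR test). Since miR-486 was picked afterwards, it is not counted with the list. miR-223 had at most 14 counts in any library, miR-150 at most 2 and miR-144 at most 3. The summed level of the list was between 2858 and 3100 CPM in CHMm and between 1771 and 1882 CPM in CHMmTAM, nearly all of it miR-155, which also occurs in tumor cells (log2 fold change -0.73, FDR = 1.19e-25 in the edgeR test). miR-146a was at 18.2 ± 2.28 and 15.1 ± 0.82 CPM (log2 fold change -0.27, FDR = 0.0864 in the edgeR test). The part of blood cells in the result for miR-181a was not tested beyond these values.

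Among epithelial miRNAs, which a mammary tumor line should hold, miR-200c was at 12807 ± 504 CPM in CHMm and 12272 ± 326 CPM in CHMmTAM and miR-205 was at 5998 ± 139 and 3802 ± 64.2 CPM (SD, n = 3 each). Of the 7 epithelial miRNAs 3 were called higher and 2 lower, beside 25.4% and 18.7% of all tested miRNAs. The 7 summed to 25124 to 26471 CPM in CHMm and 22450 to 23736 CPM in CHMmTAM. The 4 mesenchymal miRNAs summed to 39.7 to 47.6 CPM in CHMm and 23.8 to 28.8 CPM in CHMmTAM, where miR-199 fell by 0.85 on the log2 scale (FDR = 2.54e-13 in the edgeR test) and miR-143 was at 2.17 ± 1.51 and 3.14 ± 0.70 CPM. The other 2, miR-145 and miR-214, had at most 34 counts in any library.

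TGF-β signaling has been reported to raise miR-181 members in several cell types, and 8 other miRNAs reported to rise with it were listed for comparison. Of these 1 was called higher and 3 lower (miR-155, miR-199 and miR-27a), beside 25.4% and 18.7% of all tested miRNAs. The median log2 fold change of the 8 was -0.13, against 0.06 over all tested miRNAs. miR-21, the most abundant miRNA of both lines, was at 0.09 (FDR = 0.236 in the edgeR test), and miR-27a, the next most abundant of the list, is given above. The higher one was miR-182, at 0.64 (FDR = 5.91e-22 in the edgeR test), named after its value was seen. The other 4 were not called at an FDR below 0.05, and of them miR-145 had at most 5 counts and miR-143 at most 47 in any library. The part of TGF-β signaling in the levels of miR-181a and miR-181b was not tested.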

How the data were processed

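For each library the authors deposited raw counts of HiSeq reads over canine miRNAs. The submitters' processing notes name HISAT2 2.0.4, BWA and the build CanFam3.1 without a role. The counting tool and the rule for reads matching more than 1 miRNA are not given in the sources used here. RefSeq genes of another assembly gave names and neighbors only, so no coordinates are printed. RNA-seq libraries were not analysed here.

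miRNAs whose counts summed to at least 10 were tested, scaled by TMM and compared with edgeR 4.0.16 (R 4.3.3), quasi-likelihood test, Benjamini-Hochberg adjustment over 284 miRNAs. Standard errors were derived from the F statistic. A member was called at FDR below 0.05. Ratios were tested by exact permutation with SciPy 1.17.1. The fit was tested on data simulated from the kind of model it assumes, which cannot show that the model suits these libraries. No library was a duplicate of another (within a line, chi-square divided by its degrees of freedom was 26.3 to 85.8). 3 counts correspond to 0.24 to 0.399 CPM.

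Named miRNAs are the members, the 5 nearest profiles to miR-181a, genomic neighbors (picked from RefSeq after the data were opened), and the 2 most abundant of each list. Further miRNAs, miR-451 and miR-223 among them, are named outside this rule, and some were picked after their values were seen. The members and lists were chosen with earlier results of these data known. Alternatives were other scalings, filters and tests (DESeq2 1.42.0, limma 3.58.1), summed members, a replicate block, and leaving out each library.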

Additional observations from a re-analysis of the deposited data

How the results depend on the processing

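With other scalings, filters and tests, miR-181a and miR-181b kept their direction and their call, and miR-181a stayed above a log2 fold change of 1 in every setting that counted it by itself. The size of its FDR depended strongly on the setting. It was 1.14e-57 with TMM, 2.96e-15 with library totals only and 4.27e-09 without CHMm replicate 1 (edgeR test). The log2 fold changes of miR-181a in these settings were 1.26, 1.25 and 1.28. miR-181c, at 0.06, was at -0.00089 under RLE size factors, -0.00082 in the DESeq2 Wald test and -0.18 under upper-quartile normalization, and miR-181d, at 0.07, was at -0.17 under the last. Upper-quartile normalization shifted the whole profile, with 41 miRNAs higher and 100 lower at FDR below 0.05 against 72 and 53 with TMM. Summed with the member closest in sequence, miR-181c with miR-181a was at 0.78 (FDR = 1.27e-26 in the edgeR test). The sum of miR-181d with miR-181b was at 0.16 (FDR = 0.0323 in the edgeR test). Both were called but stayed below a log2 fold change of 1, and each sum contains a member that rose. In the sum of neighboring members, a and b together were at 0.99 and c and d at 0.07. The log2 ratio of a/b to c/d, higher by 0.93 in CHMmTAM, was higher by 0.98 with the mean of log2 counts, and the ratio of a/c to b/d by 0.63.

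Leaving out each library in turn gave log2 fold changes of 1.23 to 1.31 for miR-181a, 0.80 to 0.91 for miR-181b, 0.02 to 0.14 for miR-181c and 0.04 to 0.15 for miR-181d, with no call changed. The a/b to c/d difference stayed between 0.91 and 0.94. The difference in the c/d ratio ran from -0.046 to 0.016, and changed sign without CHMm replicate 1 (0.016), CHMm replicate 3 (0.0078) or CHMmTAM replicate 2 (0.0076), all far below the spread between libraries. Against its family, miR-181c was between -0.21 and -0.15 and miR-181d between -0.17 and -0.16, without a call.

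The replicate numbers do not clearly pair the libraries. Deviations of same-numbered libraries correlated at 0.06, 0.46 and -0.31 over 117 miRNAs, and 2 of the 6 libraries correlated best with their own number. With the replicate block, miR-181a was at 1.26, miR-181b at 0.84, miR-181c at 0.06 and miR-181d at 0.07, no member's call changed, and 74 miRNAs were higher and 52 lower.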

Other observations

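The miRNAs nearest to miR-181b over the 6 libraries, among the 117 with a mean of at least 50 CPM, were looked up after its values were seen. Its nearest profiles were those of miR-183, miR-96, miR-140, miR-182 and miR-103. Their root mean square differences in log2 CPM were 0.08, 0.11, 0.16, 0.16 and 0.18, and miR-181a came at place 14 with 0.30. miR-183, miR-96 and miR-182 are known as members of a cluster transcribed together. All 3 are abundant, miR-183 with means of 8200 CPM (SD 136) in the 3 parental and 13938 CPM (SD 279) in the 3 resistant libraries, and their log2 fold changes were 0.77, 0.72 and 0.64.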
